A study of Mus musculus with 12 samples.

Results

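Aortic arches of mice without apolipoprotein E (Apoe-/-) were set against those of wild type mice, both after 16 weeks of a high-fat, cholesterol-containing diet. The comparison took 6 of the 12 arrays of the study: those labelled Apoe-/- after 16 weeks without drug (pools 4, 5 and 6) and those labelled wild type control after 16 weeks (pools 16, 17 and 18). Each of these arrays held RNA from 3 mice, so the p-values below measure the spread between pools of mice. Both groups were labelled C57BL/6, began the diet at 8 weeks of age and were fasted overnight before the tissue was taken. The labels name neither the allele nor the sex of the mice. The other 6 arrays held Apoe-/- arches after 8 or 24 weeks of the same diet and entered the fit to estimate the spread. Every pool was hybridised in the Cy5 dye beside a common Cy3 reference. The reference is described as a mixture in equal parts of Apoe-/- arch RNA from all 3 diet times, and its exact make-up is not known here. Values are therefore log2 ratios of a pool over that reference, in which 0 means the same amount as in the mixture, and they carry no level of a gene.

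Apolipoprotein E binds receptors in the liver that clear remnant lipoproteins from blood. Without it, cholesterol-rich particles stay in the circulation and enter the artery wall, where monocytes become macrophages that take them up and turn into foam cells. The aortic arch is among the first places where such plaques form in mice. Its wall is otherwise made of layers of contractile smooth muscle and elastic fibres, an endothelial lining and an outer coat of fibroblasts.

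The deleted gene was read first. The log2 ratio of Apoe was -0.16, 0.030 and -0.085 in Apoe-/- pools 4, 5 and 6, against 2.62, 2.01 and 2.85 in wild type pools 16, 17 and 18, and this order of pools is kept throughout. Since the high ratio of Apoe in wild type pools served to settle the direction of all deposited ratios, the sign of this difference is no check of the labels. No wild type pool came near an Apoe-/- pool, and the Apoe-/- pools lay at 0, the level of a reference made from Apoe-/- tissue. Apoe was 5.90-fold lower in Apoe-/- arches (95% confidence interval 4.55 to 7.65, adjusted p = 1.06e-05 by limma with Benjamini-Hochberg adjustment, as are all adjusted p-values here). A probe outside the deleted part of a gene could not tell the genotypes apart, and the place of its probe in the gene is not known here.

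Of 19705 genes tested, 1991 (10.1%) differed between Apoe-/- and wild type arches at an adjusted p under 0.05, 1189 higher (6.03%) and 802 lower (4.07%). Counts of list members given below are to be read beside these shares. The rises were larger than the falls. The median fold was 1.79 among genes that rose and 1.36 among genes that fell, and a change of at least 2-fold was reached by 482 genes upward and by 24 downward. At least 10-fold rises numbered 27. Across genes, the ratios of Apoe-/- pools correlated with one another at r = 0.151 to 0.498 and those of wild type pools at 0.835 to 0.942, a description that shares the reference on both sides. Pairs of an Apoe-/- and a wild type pool correlated at 0.254 to 0.593. These correlations do not rank the spread of the groups: the median standard deviation of a gene was 0.091 between Apoe-/- pools and 0.102 between wild type pools. The 3 Apoe-/- pools lay entirely above or below the 3 wild type pools for 31.4% of all genes tested. The split of the calls depended on the scaling: 59.7% of called genes were higher on the values as deposited and 44.8% after quantile normalization, which gives every array the same distribution and called 893 genes. A change is said to have held where it also passed, in the same direction, in each of 14 other fits (without each of the 12 pools in turn, on the 6 pools alone, and after quantile normalization) and where all probes of the gene had the same sign. This was so for 499 genes, 311 higher and 188 lower. Probes were not tested one by one: of the 56 genes that held and had more than 1 probe, 34 had a largest probe difference over 3 times the smallest, so their folds average unequal probes. Another 572 genes passed in every fit except that after quantile normalization.

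**Figure D1:**
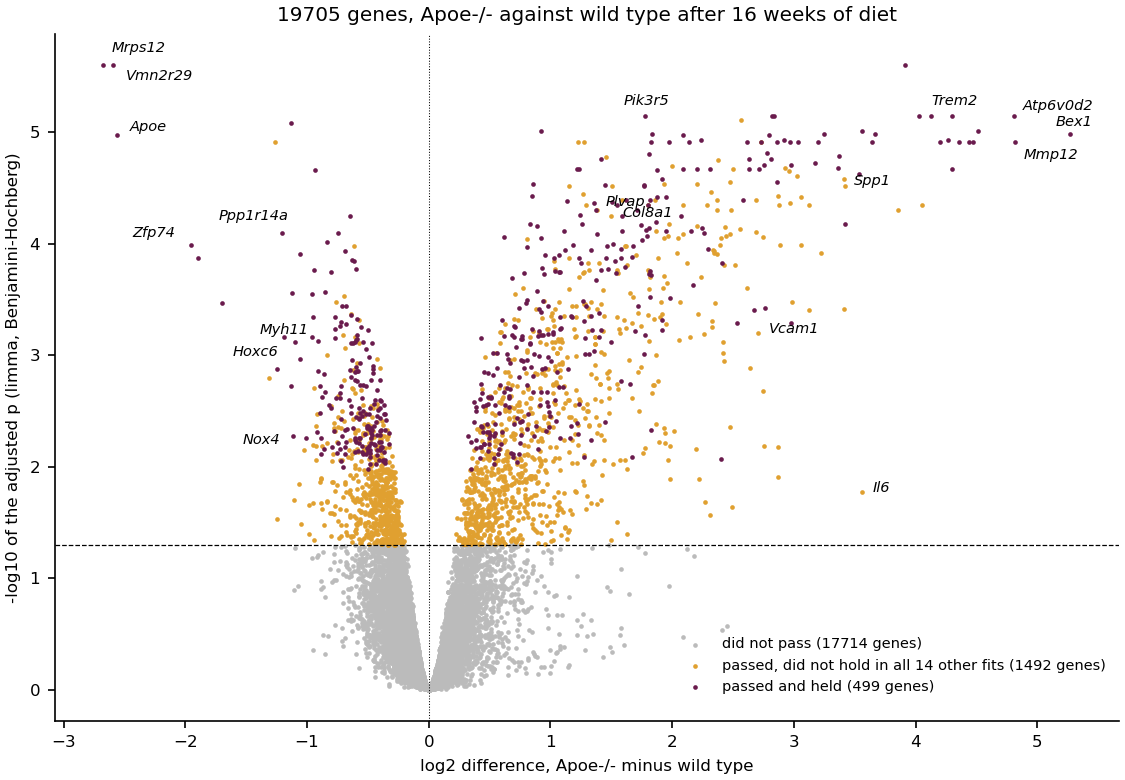
Each point is 1 of 19705 genes, placed by its log2 difference (Apoe-/- minus wild type) and by -log10 of its adjusted p, with the dashed line at an adjusted p of 0.05. The largest differences lie on the right, up to 5.27 for Bex1, while the lowest on the left is -2.68 for Mrps12, and 499 dark points mark genes that also held in the 14 other fits.

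The 20 largest rises that held ranged from 10.3-fold for Cdk18, a cyclin-dependent-kinase relative, to 38.6-fold for Bex1, a small adaptor-like protein best known from neurons. Bex1 had log2 ratios of -0.89, 0.27 and -0.81 in Apoe-/- pools, against -5.69, -5.997 and -5.56 in wild type pools (difference 5.27 ± 0.35 (standard error), 95% interval of the fold 22.8 to 65.4, adjusted p = 1.03e-05). Mmp12, the elastin-degrading metalloproteinase of macrophages, had -1.56, -0.72 and -1.22 in Apoe-/- pools, against -5.93, -6.02 and -5.999 in wild type pools. Atp6v0d2, a proton pump subunit of osteoclasts and macrophages, had -1.04, -0.063 and -0.93, against -5.46, -5.73 and -5.27. Wild type pools were within 0.5 log2 units of one another for these 3 genes, and the Apoe-/- pools spread more widely. Mmp12 was 28.2-fold higher (interval 16.9 to 47.1) and Atp6v0d2 28.1-fold higher (interval 18.3 to 43.1) in Apoe-/- arches. The wild type ratios of these genes, near -6, were at or near the low end of those arrays. The lowest deposited log10 ratio was -1.84, -1.81 and -1.81 in wild type pools 16, 17 and 18. In pools 17 and 18 that lowest value was the one of Mmp12. The lowest log2 ratio in the data, -6.64, came from pool 2, an Apoe-/- pool after 8 weeks. A fold may therefore be too small where the wild type signal was near background, which ratios alone do not show.

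The rest of these 20 genes were for the most part genes of macrophages and other leukocytes. Il1rn, the natural antagonist of the interleukin-1 receptor, was 22.8-fold higher in Apoe-/- arches. Mpeg1, the macrophage pore-forming protein perforin-2, was 22.2-fold higher, and Ctss, the elastin-degrading cathepsin S, 20.4-fold. A change that held kept its sign and its call but not its size. After quantile normalization the log2 difference was 3.10 instead of 5.27 for Bex1, 1.68 instead of 4.47 for Mpeg1 and 1.28 instead of 4.35 for Ctss. It was smaller under that scaling in each of these 20 genes. Trem2, a lipid-sensing receptor of foam cells, had log2 ratios of -0.68, 0.063 and -0.43 in Apoe-/- pools, against -4.71, -4.94 and -4.30 in wild type pools (19.7-fold higher, adjusted p = 7.1e-06). Abcg1, the exporter of cholesterol to high-density lipoprotein, had -1.03, -0.22 and -0.81, against -4.69, -5.02 and -4.74 (17.5-fold higher, adjusted p = 7.1e-06). Itgax, the integrin CD11c of dendritic cells and foam cells, was 16.3-fold higher, and Gpnmb, a glycoprotein of lysosome-rich macrophages, 15.1-fold. The receptors Lilrb4a, Cd300c2, Cd22, Havcr2 and Pirb and the tetraspanin Cd53 rose 19.7-fold, 19.2-fold, 12.7-fold, 12.5-fold, 11.8-fold and 11.6-fold. Bcl2a1b and Bcl2a1a, near-identical copies of an anti-apoptotic Bcl2 relative whose probes may not tell them apart, rose 21.6-fold and 18.4-fold. Anxa8, an annexin, had -0.035, -0.015 and -0.60, against -3.96, -4.15 and -2.82, and rose 10.7-fold. In all 20 of these genes pool 5 was the highest of the 3 Apoe-/- pools, and it was the highest for 206 of the 311 rises that held, against 81 for pool 4 and 24 for pool 6.

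**Figure D2:**
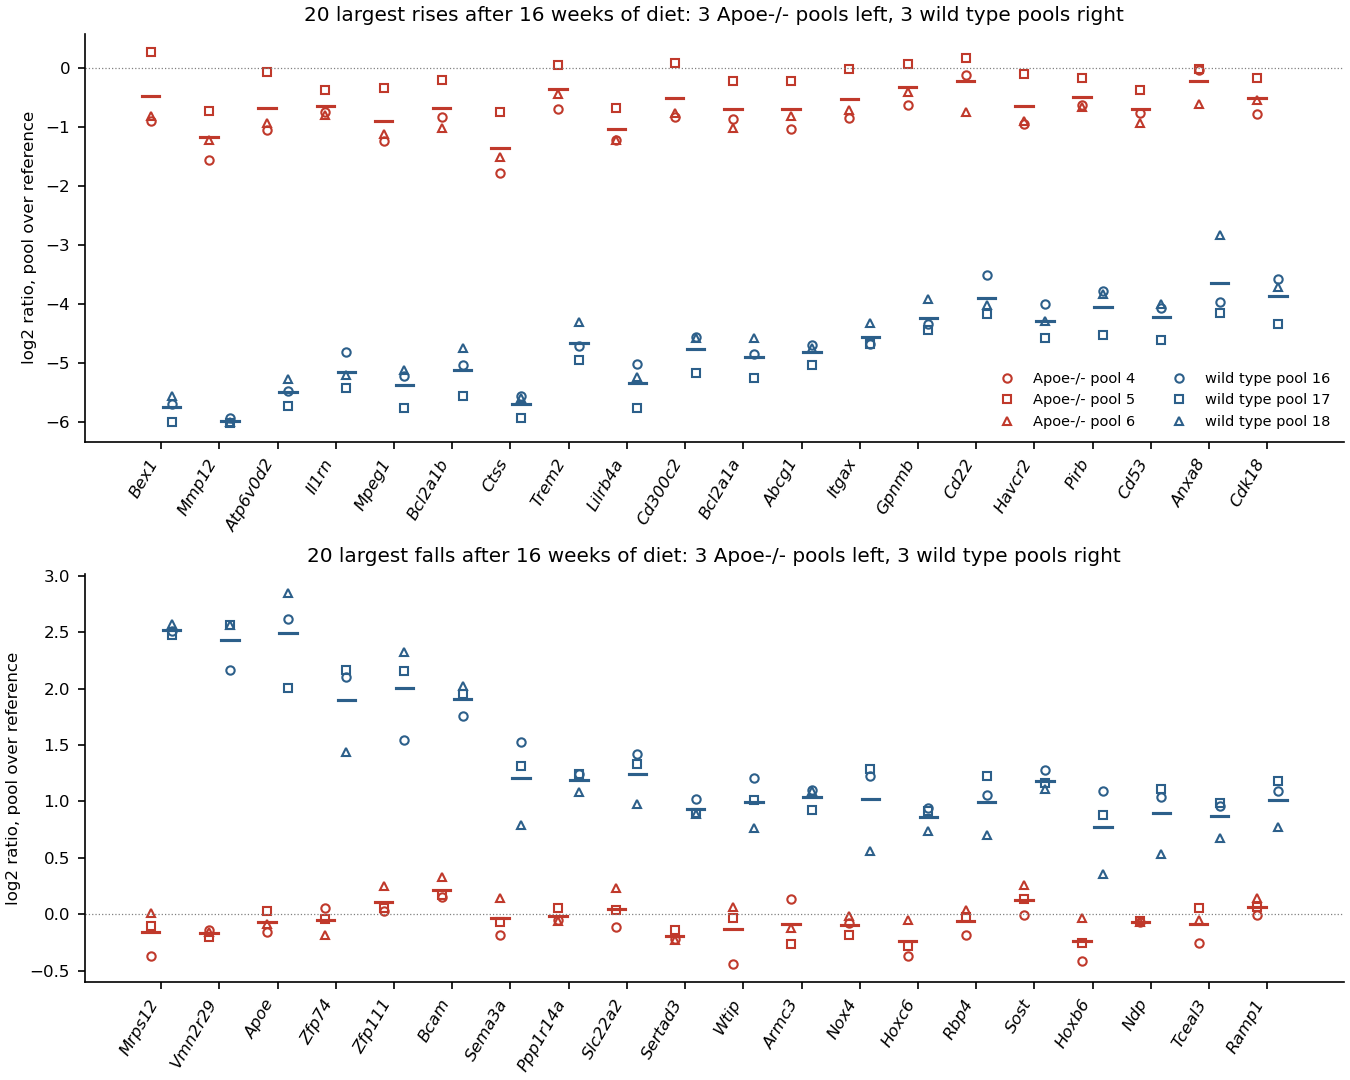
Log2 ratios over the reference (vertical axis) of the 20 largest rises (top) and the 20 largest falls (bottom) among genes that held, with the 3 Apoe-/- pools in red on the left of each gene, the 3 wild type pools in blue on the right, and bars at the group means. Pool 5 (red squares) is the highest Apoe-/- pool for all 20 rises. The groups do not overlap for any gene shown, as for 1989 of the 1991 called genes.

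The start regions of the 2 genes with the largest rises are shown because the pools of each group were so far apart for them. Each is 250 bases before and 50 after an annotated transcription start in RefSeq (build GRCm38.p6), printed 5′ to 3′ on the gene's strand. Capitals mark matches, on either strand, to the AP-1 site TGANTCA, the core GAGGAA of sites for the myeloid factor PU.1, the TATA box TATAAA or the CArG box, where serum response factor binds.
Bex1, chrX:136215464-136215763, minus strand: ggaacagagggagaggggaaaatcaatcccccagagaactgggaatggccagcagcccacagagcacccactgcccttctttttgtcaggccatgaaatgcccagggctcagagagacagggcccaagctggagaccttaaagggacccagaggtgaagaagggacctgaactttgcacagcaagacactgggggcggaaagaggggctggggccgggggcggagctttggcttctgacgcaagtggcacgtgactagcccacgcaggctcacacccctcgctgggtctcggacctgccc
Mmp12, first start, chr9:7344147-7344446, plus strand: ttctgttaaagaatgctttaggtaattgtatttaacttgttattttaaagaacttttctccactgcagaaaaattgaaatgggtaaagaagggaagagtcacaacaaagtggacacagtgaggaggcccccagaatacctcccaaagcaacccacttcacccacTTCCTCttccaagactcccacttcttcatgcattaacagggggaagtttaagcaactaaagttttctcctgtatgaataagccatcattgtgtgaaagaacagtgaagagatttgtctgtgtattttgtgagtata
Mmp12, second start, chr9:7347124-7347423, plus strand: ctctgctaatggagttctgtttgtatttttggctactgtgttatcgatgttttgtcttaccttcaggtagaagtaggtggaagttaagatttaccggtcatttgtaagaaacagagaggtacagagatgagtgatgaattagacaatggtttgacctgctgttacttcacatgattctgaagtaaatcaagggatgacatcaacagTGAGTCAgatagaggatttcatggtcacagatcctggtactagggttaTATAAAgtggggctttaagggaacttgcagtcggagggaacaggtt
The second Mmp12 window held an AP-1 match and a TATA box, and the first a PU.1 core on the opposite strand (TTCCTC). The Bex1 window held no match to these letters. Among 32851 such windows, 7.81% held the AP-1 letters, 28.3% the PU.1 core, 13.6% the TATA box and 1.63% the CArG box. A match describes the letters and is not evidence of binding.

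Macrophage markers were higher in Apoe-/- arches. Of 22 measured, 12 rose, 0 fell, and the median log2 difference was 1.46, beside -0.028 over all genes tested. On the values as deposited all 22 differences were above 0. The mean of the list was -0.50, -0.16 and -0.42 in Apoe-/- pools, against -1.73, -2.10 and -1.72 in wild type pools. In bulk tissue, more cells of a type and more RNA per cell cannot be told apart. Csf1r, the receptor on which macrophages depend for survival, had -0.12, 0.16 and -0.15 in Apoe-/- pools, against -1.79, -2.18 and -1.59 in wild type pools (3.52-fold higher, adjusted p = 4.04e-05). Fcgr3, an activating receptor for immunoglobulin G, was 6.73-fold higher and Aif1, a cytoskeletal protein of macrophages, 4.91-fold. The differences of 4 macrophage markers held, those of Mpeg1, Fcgr3, Aif1 and Csf1r. Adgre1, a surface antigen of mouse macrophages, rose 5.72-fold, Lyz2, lysozyme, 3.74-fold, and the complement genes C1qa, C1qb and C1qc 6.69-fold, 5.27-fold and 8.34-fold, but the adjusted p-values of these 5 genes after quantile normalization were 0.0974 to 0.915. Under that scaling the median of the list was 0.24, and not all differences stayed above 0. Those of Cd14 and Fcgr1, called 2.70-fold and 2.79-fold higher on the deposited values, became -0.293 and -0.218. Those of Msr1, Mrc1 and Folr2, which had not passed, became -0.336, -0.305 and -0.201. Cd68, a lysosomal protein often used to stain plaque macrophages, had -0.15, -0.069 and -0.091 in Apoe-/- pools, against -0.22, -0.18 and -0.071 in wild type pools (adjusted p = 0.766), and Itgam, the integrin CD11b, had 0.38, 0.022 and 0.84, against 0.16, 0.15 and 0.64 (adjusted p = 0.898).

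Surface receptors of myeloid cells were also higher in part. Of 11 Fc receptors and their adaptors, 8 were higher and 0 lower, with a median difference of 1.37 (0.34 after quantile normalization), and 1 of the rises held. Of 30 inhibitory and activating leukocyte receptors, 12 were higher and none lower. Pira2, an activating member of the paired immunoglobulin-like receptors, rose 7.07-fold beside its inhibitory relative Pirb, and probes within this family may share targets. Among 18 C-type lectins, 7 rose, led by Clec7a, the fungal glucan receptor dectin-1 (7.90-fold), whose call ended after quantile normalization (adjusted p = 0.84). Clec4a1 rose 2.52-fold and held. Of 18 Toll-like receptors and adaptors, 5 rose. Ly96, the lipopolysaccharide-binding partner of Tlr4, was 1.62-fold higher and Tlr3, a sensor of double-stranded RNA, 1.46-fold, and both held.

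Most signalling proteins downstream of these receptors rose: 16 of 26 were higher (background 6.03%), 9 held and none was lower. Their median difference was 1.44, and 0.52 after quantile normalization. Pik3r5, a regulatory subunit of phosphoinositide 3-kinase gamma, had -0.37, -0.037 and -0.21 in Apoe-/- pools, against -1.99, -2.02 and -1.94 in wild type pools (3.42-fold higher, adjusted p = 7.1e-06). The pools of each group lay close together for this gene, but its 2 probes gave differences of 0.10 and 3.44, so the size depends on the probe. Nckap1l, the blood-cell Hem1 subunit of the actin-remodelling WAVE complex, rose 9.17-fold, and Inpp5d, the lipid phosphatase SHIP1, 6.85-fold. Rac2, the small GTPase of leukocytes, rose 7.01-fold. Ptprc, the pan-leukocyte phosphatase CD45, had -0.47, -0.43 and -1.14, against -3.61, -4.35 and -3.76, and rose 9.36-fold, with an adjusted p of 0.124 after quantile normalization. Among 31 myeloid transcription factors, 12 were higher. Irf5, which drives inflammatory cytokine genes in macrophages, rose 4.62-fold and Batf3, needed for cross-presenting dendritic cells, 3.28-fold, and both held. Spi1, which encodes PU.1, had -0.10, 0.010 and -0.072, against -0.46, -0.53 and -0.29, a 1.29-fold rise (adjusted p = 0.0166) that lost its call without pool 5, 16 or 17 and after quantile normalization.

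Inflammatory mediators followed. Of 21 genes of the interleukin-1 family and inflammasomes, 9 were higher and none lower. Nlrp3, the inflammasome sensor that cholesterol crystals can activate, had -0.31, -0.16 and -0.66 in Apoe-/- pools, against -1.90, -2.62 and -2.45 in wild type pools (3.86-fold higher, adjusted p = 7.7e-05). Il1b, the cytokine it releases, rose 7.30-fold, with an adjusted p of 0.208 after quantile normalization. The ratio of Il6, an inflammatory cytokine of macrophages and vessel wall cells, was -1.26, -0.55 and -1.13, against -4.51, -4.33 and -4.78. Its 11.8-fold rise (adjusted p = 0.0169) lost its call without pool 5, 16 or 17 and after quantile normalization. Il2rg, the shared receptor chain of several lymphocyte cytokines, and Csf2ra, the receptor chain for the growth factor GM-CSF, rose 4.95-fold and 4.70-fold and held.

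Of 18 CC chemokines, 10 rose and 1, Ccl27a, fell (1.40-fold, a call lost in 5 of the 12 fits that leave out a pool). Ccl7 and Ccl8, monocyte attractants, had -0.37, -0.45 and -0.62 and 0.050, -0.028 and -0.11 in Apoe-/- pools, against -2.47, -3.35 and -3.65 and -2.21, -3.04 and -2.43 in wild type pools. Ccl7 was 6.38-fold higher, Ccl8 5.77-fold, Ccl6 4.51-fold and Ccl19, which guides lymphocytes and dendritic cells through Ccr7, 2.00-fold, and all 4 held. Ccl2, the main ligand of the monocyte receptor Ccr2, rose 5.07-fold, and Ccl5 2.34-fold, with adjusted p-values of 0.26 to 0.341 after quantile normalization. Of 16 CXC and CX3C chemokines, 7 rose, of which Cxcl12 (1.75-fold, its 3 probes ranging from 0.16 to 1.57) held. Its receptor Cxcr4 had -0.64, -0.15 and -0.73 in Apoe-/- pools, against -3.64, -4.11 and -3.28 in wild type pools, and was 8.99-fold higher (adjusted p = 1.87e-05). Ackr1, a chemokine-binding receptor of venular endothelium and red cells, rose 1.76-fold. In all, 5 of 21 chemokine receptors rose and none fell.

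**Figure D3:**
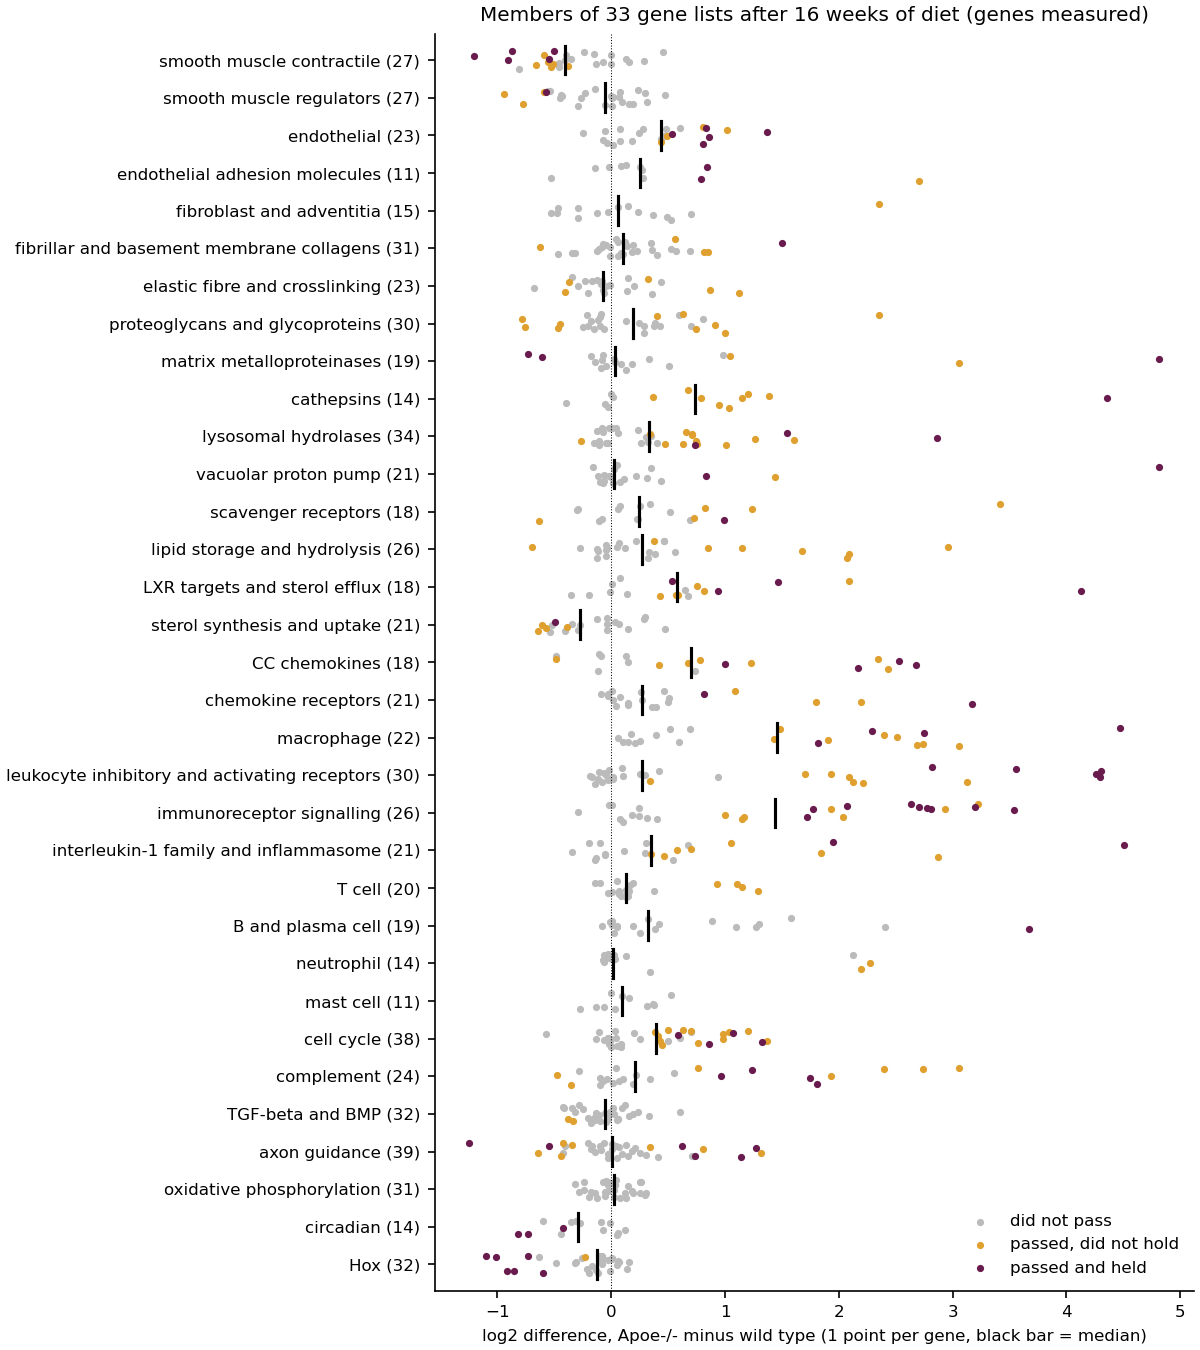
Log2 difference (Apoe-/- minus wild type) of each measured member of 33 gene lists, 1 point per gene, with the black bar at the median of the list and the number measured in parentheses. The points farthest to the right are Mmp12 in the metalloproteinase list and Atp6v0d2 in the proton pump list, the smooth muscle contractile list has its median at -0.41, and all points of oxidative phosphorylation are grey.

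Antigen presentation and interferon-responsive genes were higher in part. Of 15 genes of class II presentation, 8 were higher and none lower. H2-Eb1, a class II beta chain, had 0.41, 0.52 and -0.21 in Apoe-/- pools, against -2.33, -3.30 and -1.94 in wild type pools (6.79-fold higher, adjusted p = 0.000375). In the same list H2-Ab1, another class II beta chain, and Cd74 rose 1.43-fold and 1.73-fold, and both calls were lost without pool 17 and after quantile normalization. The costimulator Cd86 rose 3.76-fold and held. Of 21 interferon-stimulated genes, 7 rose, of which Isg15, a ubiquitin-like protein, held (1.99-fold). Of 16 genes of class I presentation, 5 rose, and H2-M3 held at 1.56-fold.

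Genes that handle cholesterol included rises among those for its export and falls among those for its synthesis. The liver X receptors are nuclear receptors that sense oxysterols. Of 18 genes in a list of these receptors, their targets and sterol efflux, 10 were higher and none lower. Besides Abcg1, Pltp, a phospholipid transfer protein, rose 2.76-fold, Nr1h3, which encodes the receptor LXR alpha itself, 1.92-fold, and Lpcat3, a phospholipid-remodelling enzyme, 1.45-fold. Abca1, the exporter of cholesterol to lipid-poor apolipoprotein A-I, had -0.20, -0.026 and -0.22 in Apoe-/- pools, against -0.56, -0.63 and -0.55 in wild type pools. Its rise was 1.35-fold (adjusted p = 0.0319), lost without any 1 of the 6 pools compared, and smaller than that of Abcg1. Of 21 genes of sterol synthesis and uptake, none was higher and 5 were lower (Fdps, Lss, Idi1, Tm7sf2 and Cyp51, at 1.31-fold to 1.56-fold lower), and the median difference was -0.28 (-0.15 after quantile normalization). Tm7sf2, a sterol reductase, had 0.19, 0.010 and -0.004, against 0.65, 0.46 and 0.58 (1.41-fold lower, adjusted p = 0.00435), and it alone of the 5 held.

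Among 26 genes of lipid storage and hydrolysis, 7 rose and 1 fell. Fabp5, a fatty acid carrier, rose 7.79-fold, Lpl, lipoprotein lipase, 4.25-fold, Soat1, which esterifies cholesterol for droplets, 3.21-fold, and Plin2, a droplet coat protein, 2.22-fold. The calls of these 4 genes ended after quantile normalization (adjusted p 0.324 to 0.751). Of 18 scavenger receptors, 5 rose. Olr1, the receptor for oxidised low-density lipoprotein LOX-1, rose 10.7-fold (adjusted p = 0.32 after quantile normalization) and Scarb1, the receptor for high-density lipoprotein, 1.98-fold, which held. Cd36 had -0.54, -0.52 and -0.091 in Apoe-/- pools, against -0.60, -0.99 and -0.59 in wild type pools (adjusted p = 0.309), and Msr1 had -0.81, -0.48 and -0.53, against -1.17, -1.27 and -1.47 (adjusted p = 0.0508). The pools of the groups did not overlap for either gene, which was so for 31.4% of all genes tested, and neither passed the test.

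Part of the lysosomal genes rose. Of 14 cathepsins, 9 were higher and none lower, with a median difference of 0.74 (0.042 after quantile normalization), and 1, Ctss, held. Of 34 other lysosomal proteins, 14 were higher and 1, the sphingomyelinase Smpd1, lower, with 3 rises that held and a median difference of 0.33 (0.078 after quantile normalization). Acp5, the tartrate-resistant acid phosphatase of osteoclasts and macrophages, had -0.65, 0.10 and -0.44 in Apoe-/- pools, against -3.22, -3.55 and -2.80 in wild type pools (7.27-fold higher, adjusted p = 1.23e-05). Npc2, which hands cholesterol to the membrane protein Npc1 inside lysosomes, rose 2.92-fold and held, and Acp2 1.67-fold. Npc1 itself rose 1.27-fold (adjusted p = 0.0497), a call lost in 10 of the 12 fits that leave out a pool. Of 21 proton pump genes, 3 rose, Atp6v0d2, Tcirg1 and Atp6v1b2, while the median of that list was 0.020, close to that of all genes. Within the pump Atp6v0d2 differed by 4.81 and Atp6v1b2 by 0.84 log2 units, for Atp6v1b2 an average of probes at 0.062 and 1.61. Ftl1, the light chain of the iron store ferritin, rose 3.49-fold and held, and Hmox1, which degrades heme, 5.07-fold, with an adjusted p of 0.162 after quantile normalization.

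Atp6v0d2 and Acp5 also belong to the osteoclast list, in which 6 of 19 genes rose and 2 fell. Ctsk, the bone-collagen protease, rose 2.04-fold and Car2, the carbonic anhydrase that supplies protons, 2.79-fold, both lost after quantile normalization. Tnfrsf11a, the receptor RANK that starts osteoclast formation, had -0.089, -0.015 and 0.045 in Apoe-/- pools, against 0.27, 0.50 and 0.37 in wild type pools, and was 1.32-fold lower (adjusted p = 0.00709). Among bone and calcification genes, Spp1, osteopontin, had -1.99, -1.45 and -1.60, against -5.33, -4.90 and -5.04, a 10.6-fold rise that ended after quantile normalization (adjusted p = 0.492). Ibsp, bone sialoprotein, rose 10.7-fold (adjusted p = 0.493 under the same scaling). Sost, the Wnt inhibitor sclerostin of osteocytes that smooth muscle of the mouse aorta also makes, fell: it had -0.006, 0.14 and 0.26 in Apoe-/- pools, against 1.28, 1.16 and 1.11 in wild type pools (2.08-fold lower, adjusted p = 0.000122).

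Matrix genes gave a mixed picture. Of 19 metalloproteinases, 3 rose (Mmp12, Mmp13 and Mmp14) and 2 fell (Mmp17 and Mmp23). Mmp13, a collagenase, had -1.59, -1.17 and -0.78 in Apoe-/- pools, against -3.92, -4.40 and -4.38 in wild type pools (8.31-fold higher, adjusted p = 0.000103, and 0.618 after quantile normalization). Mmp17, a membrane-bound metalloproteinase of smooth muscle, was 1.66-fold lower (adjusted p = 0.0022) and Mmp23 1.52-fold lower, and both held. Timp1, an inhibitor of these enzymes, rose 5.33-fold (adjusted p = 0.311 after quantile normalization). Among 31 collagens, 4 rose and 1 fell (12.9% and 3.23%, beside 6.03% and 4.07% of all genes tested). Col8a1, a short-chain collagen of injured arteries, had -0.46, -0.17 and -0.46, against -1.93, -1.77 and -1.90 (2.83-fold higher, adjusted p = 4.21e-05). Its 2 probes gave differences of 0.43 and 2.57, so the size depends on the probe. Col1a1 had -0.22, 0.40 and -0.27, against -0.79, -0.75 and -0.99 (1.76-fold higher, adjusted p = 0.0196), and the call was lost without pool 5, 16 or 18 and after quantile normalization. Eln, elastin, had 0.025, -0.38 and -0.76 in Apoe-/- pools, against -0.36, -0.20 and -0.18 in wild type pools (adjusted p = 0.81), and the pools overlapped. Of 23 elastic fibre genes 3 rose and 2 fell, and of 30 proteoglycan and glycoprotein genes 6 rose and 4 fell. No member of these lists held. Lum, the small proteoglycan lumican, showed the largest difference there, 2.35 ± 0.28 (adjusted p = 0.000342, and 0.199 after quantile normalization).

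Many contractile smooth muscle genes, the markers of the arch's main cell type, fell. Ratios do not show whether such a marker is present, only that it stood near the reference. Of 27 measured, 11 were lower (background 4.07%) and none higher, the median difference was -0.41, and the mean of the list was 0.065, -0.033 and 0.14 in Apoe-/- pools, against 0.44, 0.43 and 0.38 in wild type pools. Ppp1r14a, the inhibitor CPI-17 of myosin phosphatase, had -0.049, 0.056 and -0.057 in Apoe-/- pools, against 1.24, 1.25 and 1.09 in wild type pools (2.31-fold lower, interval 1.93 to 2.77, adjusted p = 7.94e-05). Myh11, the smooth muscle myosin heavy chain, had 0.075, -0.075 and 0.048, against 1.03, 1.16 and 0.58 (1.88-fold lower, adjusted p = 0.00074). Myl9, the regulatory myosin light chain, had 0.026, 0.020 and 0.25, against 0.92, 1.04 and 0.97 (1.83-fold lower, adjusted p = 0.00236). The groups did not overlap for any of the 3 genes, which was so for 1989 of the 1991 called genes. On the values as deposited, each of the 3 fell by less than any of the macrophage markers that passed had risen. Vcl, vinculin, and Mylk, the myosin light chain kinase, complete the 5 falls that held (1.46-fold and 1.42-fold lower), and the 3 probes of Mylk ranged from -0.92 to -0.063. Acta2, smooth muscle actin, had 0.20, 0.067 and 0.11, against 0.60, 0.80 and 0.56 (1.44-fold lower, adjusted p = 0.0115), and leaving out pool 17 ended its call (adjusted p = 0.0587), as did quantile normalization. Tagln, transgelin, had 0.093, 0.10 and -0.019, against 0.30, 0.30 and 0.29, with an adjusted p of 0.155. Its groups did not overlap, as was so for 31.4% of all genes tested.

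The windows of the 2 contractile genes with the largest falls that have an entry in the promoter table are printed as above, with the same motifs in capitals.
Ppp1r14a, chr7:29289070-29289369, plus strand: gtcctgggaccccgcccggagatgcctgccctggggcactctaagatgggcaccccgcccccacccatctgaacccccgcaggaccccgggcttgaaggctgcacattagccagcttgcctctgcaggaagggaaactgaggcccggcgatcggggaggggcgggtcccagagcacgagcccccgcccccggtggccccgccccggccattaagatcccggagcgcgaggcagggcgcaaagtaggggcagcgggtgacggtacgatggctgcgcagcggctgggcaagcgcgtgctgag
Myl9, chr2:156775214-156775513, plus strand: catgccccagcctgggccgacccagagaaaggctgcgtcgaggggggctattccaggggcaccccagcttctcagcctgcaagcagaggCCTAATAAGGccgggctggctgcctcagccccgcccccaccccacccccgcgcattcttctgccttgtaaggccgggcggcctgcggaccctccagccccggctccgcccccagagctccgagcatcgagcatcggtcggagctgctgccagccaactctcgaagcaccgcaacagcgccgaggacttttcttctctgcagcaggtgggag
The Myl9 window held a CArG box, the kind of site through which serum response factor and myocardin act on contractile genes. The letters searched did not occur in the Ppp1r14a window.

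Regulators and channels of smooth muscle were read beside them. Of 27 regulators, 4 were lower and none higher, and Rgs5, a brake on G-protein signalling in mural cells, held (-0.11, -0.092 and -0.082 in Apoe-/- pools, against 0.46, 0.67 and 0.32 in wild type pools, 1.49-fold lower). Myocd, which encodes myocardin, had -0.073, -0.11 and -0.23, against 1.17, 1.08 and 0.15: wild type pool 18 lay near the Apoe-/- pools, and the call (adjusted p = 0.0458) was lost in 8 of the 12 fits that leave out a pool. Klf4, a factor linked to loss of the contractile state, had -0.66, -0.33 and -0.57, against -0.33, -0.78 and -0.67 (adjusted p = 0.958). Of 29 channel and calcium genes, 3 rose and 4 fell. Kcnma1, the large-conductance potassium channel, was 1.61-fold lower, while the receptor-operated channel Trpc6 was 1.89-fold higher and the calcium release channel Itpr2 1.27-fold higher, and these 3 changes held. The probes of Itpr2 ranged from 0.057 to 0.62. Ptgis, the prostacyclin synthase of the vessel wall, was 1.81-fold lower, with -0.27, -0.095 and -0.041 in Apoe-/- pools, against 0.88, 0.75 and 0.53 in wild type pools. Leukotriene genes of leukocytes went the other way: Alox5ap, the activator of 5-lipoxygenase, rose 3.06-fold and the leukotriene receptors Cysltr1 and Ltb4r1 2.98-fold and 2.45-fold. The 4 probes of Alox5ap ranged from 0.094 to 2.16. A like split was seen in the NADPH oxidases, which make superoxide or hydrogen peroxide. Nox4, the form of vessel wall cells, had -0.082, -0.19 and -0.017 in Apoe-/- pools, against 1.22, 1.29 and 0.56 in wild type pools (2.17-fold lower, adjusted p = 0.00525). Ncf4 and Hvcn1, parts of the phagocyte machinery, rose 7.82-fold and 6.21-fold.

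Endothelial genes were higher, not lower. Of 23 measured, 9 rose and none fell, with a median difference of 0.44 (0.37 after quantile normalization) and list means of 0.047, 0.011 and 0.081 in Apoe-/- pools, against -0.25, -0.49 and -0.37 in wild type pools. Plvap, the diaphragm protein of permeable endothelium, had 0.048, 0.28 and 0.083 in Apoe-/- pools, against -1.19, -1.43 and -1.09 in wild type pools (2.59-fold higher, adjusted p = 4.97e-05). Tie1, an endothelial receptor kinase, rose 1.78-fold, Mmrn2, a matrix protein of vessels, 1.75-fold, and Egfl7, a secreted endothelial factor, 1.82-fold, and these held. The pan-endothelial genes Pecam1, Cdh5 and Nos3 did not pass, with differences of 0.074, -0.035 and -0.074 (adjusted p 0.721, 0.881 and 0.763). Kdr, the main receptor for vascular endothelial growth factor, had 0.42, -0.36 and 0.73, against -0.49, -1.18 and -0.61, and its call (adjusted p = 0.0454) was lost in 9 of the 12 fits that leave out a pool. Of 11 adhesion molecules, 3 rose. Vcam1, which captures monocytes, had -0.79, -0.75 and -1.14, against -3.59, -3.47 and -3.73 (6.53-fold higher, adjusted p = 0.000636, and 0.544 after quantile normalization). Icam1, the ligand of leukocyte integrins, rose 1.79-fold and F11r, a junction protein, 1.72-fold, and both held. Sele, E-selectin, had -0.46, -0.001 and -0.15, against -0.23, -0.55 and -0.23 (adjusted p = 0.719).

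Markers of lymphocytes and of neighbouring tissues were read next, because a pool can carry other cells with it. Of 20 T cell genes, 4 were higher and none held, the list means being 0.018, 0.006 and -0.058 in Apoe-/- pools, against -0.26, -0.36 and -0.30 in wild type pools. Of 13 genes of natural killer and cytotoxic cells, 5 rose, led by the lectin Klrd1 (2.75) and the granzyme Gzma (2.47), both lost after quantile normalization. B and plasma cell genes stood out in pool 4. Their mean was 0.82, -0.31 and -0.33 in Apoe-/- pools, against -0.62, -0.74 and -0.65 in wild type pools, and pool 4 was the highest Apoe-/- pool for 11 of the 19. Jchain, the joining chain of secreted antibodies, had 3.31, -2.64 and -2.42 in Apoe-/- pools, against -3.17, -2.76 and -3.03 in wild type pools. The B cell marker Ms4a1 (CD20) had 2.68, -1.17 and -1.06, against -1.22, -1.67 and -1.41, and Cxcl13, the chemokine that gathers B cells into follicles, 1.998, -0.87 and -1.05, against -1.51, -1.78 and -1.57. Pools 5 and 6 lay close to the wild type pools for Jchain and Ms4a1, and none of these 3 genes passed the test (adjusted p 0.291, 0.279 and 0.14). Only Cd22, an inhibitory receptor of B cells, passed in this list, and it did not follow pool 4: it had -0.11, 0.18 and -0.74, against -3.50, -4.16 and -4.02.

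Heart muscle genes stood out in pool 6. The mean of 19 such genes was -0.36, -1.10 and 0.30 in Apoe-/- pools, against -0.62, -1.68 and -0.46 in wild type pools. Pool 6 was the highest Apoe-/- pool for 14 of them, and none passed the limma test (0 at an unadjusted p under 0.05). Myh6, the atrial and adult heart myosin, had -0.63, -1.84 and 1.34 in Apoe-/- pools, against -0.64, -2.51 and -0.998 in wild type pools, and Kcnj3, a potassium channel of atrial muscle, -0.34, -2.55 and 2.07, against -2.35, -2.72 and -2.01. Of the 100 genes for which the highest Apoe-/- pool lay farthest above the middle one, pool 6 was the highest for 66, pool 4 for 23 and pool 5 for 11. Red cell genes had means of 0.23, -0.74 and 0.34, against -0.69, -0.95 and -1.08, with pool 5 at the wild type level, and none of 8 passed the limma test (4 at an unadjusted p under 0.05). Itga2b, the fibrinogen receptor subunit of platelets, had 0.84, 0.026 and 0.46, against -1.15, -1.52 and -1.01 (3.18-fold higher, adjusted p = 0.00823), and it held. Ppbp, platelet basic protein, rose 4.96-fold and Clec1b, the platelet podoplanin receptor, 5.63-fold, and both calls were lost without pool 4, 6, 16, 17 or 18. These 3 genes come from the integrin, chemokine and lectin lists, and no list of platelet genes was tested. White fat genes had means of 0.15, -0.11 and 0.25, against -0.30, -0.48 and -0.094, with 2 of 14 higher. No member of the mast cell, brown fat or skeletal muscle lists passed the limma test, and 1 of 11, 3 of 12 and 2 of 13 had an unadjusted p under 0.05. The part of these tissues in the changes above was not tested.

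**Figure D4:**
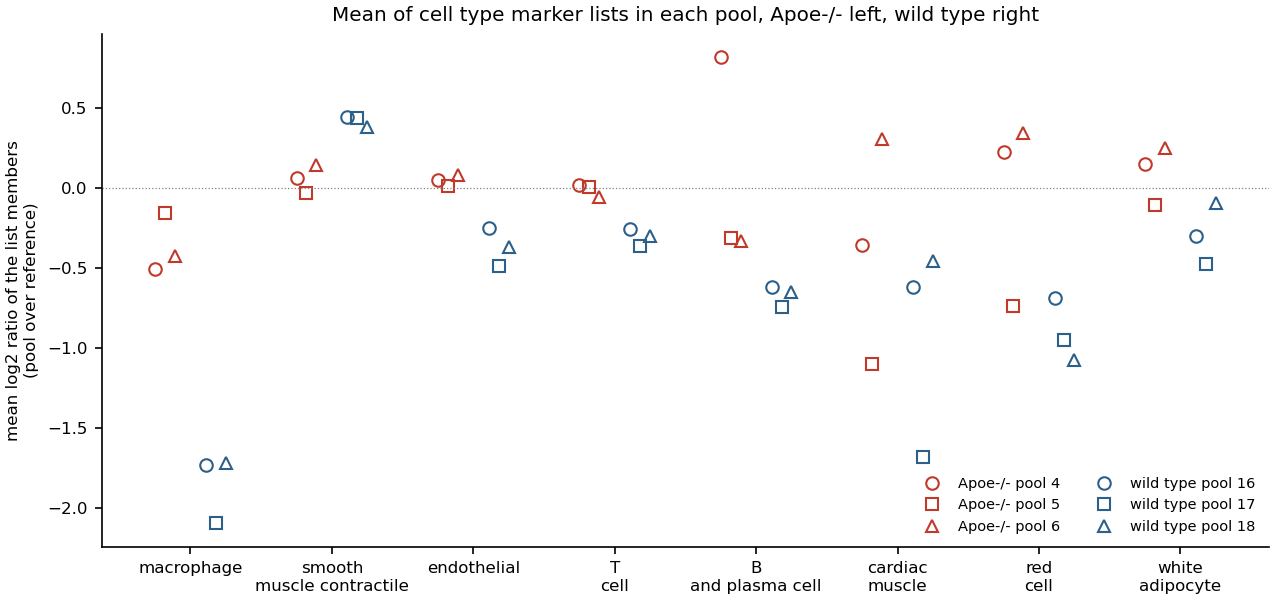
Mean log2 ratio over the reference of 8 lists of cell type markers in each pool, Apoe-/- pools in red on the left and wild type pools in blue on the right of each list. The groups do not overlap for the macrophage, smooth muscle, endothelial, T cell and B cell lists, pool 4 is alone at the top of the B and plasma cell list (0.82), and pool 6 leads the cardiac list (0.30).

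Complement and clotting genes rose in part. Of 24 complement genes, 9 were higher and 2 lower. C3, the central component, had 0.045, -0.18 and -0.081 in Apoe-/- pools, against -1.85, -2.20 and -1.60 in wild type pools (3.51-fold higher, adjusted p = 1.55e-05), and the alternative pathway proteins Cfp and Cfb rose 3.35-fold and 1.95-fold. Of 27 clotting genes, 4 rose and 1 fell. F7 and F10, clotting proteases best known from liver, rose 9.50-fold and 2.42-fold, and Procr, the receptor for activated protein C, 3.00-fold. F3, tissue factor, which starts clotting together with F7, was 1.61-fold lower, with -0.36, 0.010 and -0.17 in Apoe-/- pools, against 0.59, 0.54 and 0.41 in wild type pools. These 4 changes and those of C3, Cfp and Cfb held.

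Cell cycle genes were higher. Of 38 measured, 17 rose and none fell, with a median difference of 0.40 (0.20 after quantile normalization). Aurkb, a mitotic kinase, had -0.15, 0.081 and -0.16 in Apoe-/- pools, against -0.97, -1.36 and -1.88 in wild type pools (2.51-fold higher, adjusted p = 0.0057). Cdk1, which starts mitosis, rose 2.10-fold, E2f8, a repressor of S-phase genes, 1.82-fold, and Rrm2, which makes deoxynucleotides, 1.51-fold, and all 4 held. The 2 probes of Rrm2 gave differences of 0.006 and 1.18, of which the fold is the average. Mki67, the proliferation antigen Ki-67, rose 2.59-fold (adjusted p = 0.219 after quantile normalization). No gene of 31 in oxidative phosphorylation passed the limma test (4 at an unadjusted p under 0.05), and their median difference was 0.023. In the TGF-beta and BMP list 2 of 32 were lower (6.25%, beside 4.07% of all genes tested) and none higher. Dnajb9, a chaperone of the endoplasmic reticulum induced by unfolded protein, rose 2.39-fold and held, with -0.10, 0.093 and -0.20, against -1.30, -1.55 and -1.13, and was 1 of 5 rises among 22 stress genes.

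Falls outside smooth muscle included patterning and clock genes. Hox genes mark position along the body axis and stay active in adult vessels according to it. Of 32 measured, 7 were lower and none higher, 6 of the falls held, and the median difference was -0.12. Hoxc6 had -0.37, -0.28 and -0.054 in Apoe-/- pools, against 0.94, 0.92 and 0.74 in wild type pools (2.14-fold lower, adjusted p = 0.000753). Hoxb6 had -0.42, -0.26 and -0.031, against 1.10, 0.88 and 0.36 (2.02-fold lower, adjusted p = 0.00553), and Hoxa10 -0.79, -0.28 and -0.46, against 0.28, 0.54 and 0.41 (1.89-fold lower, adjusted p = 0.00484). The pools of these 3 genes did not overlap between groups, like those of 1989 of the 1991 called genes. The labels name the arch, while the series' design has the aorta collected from root to renal bifurcation before arches were pooled, and whether the stretch used differed between groups was not tested. Of 14 clock genes, 3 were lower and none higher, and all 3 held. Per2, a core repressor of the clock, had -0.25, -0.13 and -0.020, against 0.82, 0.68 and 0.55 (1.76-fold lower, adjusted p = 0.00281). The clock output factors Hlf and Tef fell 1.66-fold and 1.34-fold, while the third of this family, Dbp, had -0.30, 0.038 and -0.64, against -0.18, 0.069 and 0.15 (adjusted p = 0.541). No source used here states the time of day of dissection, and its part in these 3 falls was not tested.

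Several further lists are given beside the shares over all genes tested, 6.03% higher and 4.07% lower. Of 18 genes of the Bcl2 family, which governs cell death, 7 rose and none fell. Besides Bcl2a1a and Bcl2a1b, Bid, a trigger of cell death, differed by 1.41 and Bcl2l11, the death-promoting Bim, by 0.60, and the calls of both ended after quantile normalization (adjusted p 0.316 and 0.245). The 2 probes of Bcl2l11 differed in sign (-0.11 and 1.32). Of 26 integrins, 4 rose and 3 fell. Itga11, a collagen receptor of mesenchymal cells, differed by 1.03 and Itgb5, a partner of the alpha v chain, by -0.42, and both held. Of 21 genes for the uptake of dying cells, 5 rose, Trem2 and Havcr2 among them, and 1, Itgb5, fell. Among 36 other cytokines and receptors 13 rose and none fell. Of 12 dendritic cell genes, 4 rose, of which Fscn1, an actin-bundling protein (1.95), held besides Batf3. Of 14 neutrophil genes, 2 rose (S100a8 and Cxcr2), and neither held. Fibroblast genes gave 1 rise among 15 (Lum), Schwann cell and nerve genes 1 among 11 (Egr2) and thymus genes 1 among 9 (Cd1d1), with median differences of 0.056, 0.00 and 0.004. Of 23 antioxidant genes, 3 rose, of which Gclm, a subunit of the glutathione-making ligase, held (0.32). Growth factors of the PDGF and FGF list gave 2 rises and 2 falls among 26, and glycolysis genes 2 rises and 1 fall among 27, none of which held. The shares of the fibroblast list (6.67% higher), the PDGF and FGF list (7.69% each way) and the glycolysis list (7.41% higher, 3.70% lower) were near those over all genes. Those of the Schwann cell and thymus lists rest on 1 gene each.

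Axon guidance genes, many of which also steer vessel and immune cells, went both ways: 7 of 39 rose and 6 fell, with a median of 0.011. Sema3a, a repulsive ligand, had -0.18, -0.068 and 0.14 in Apoe-/- pools, against 1.53, 1.32 and 0.79 in wild type pools (2.37-fold lower, adjusted p = 0.00134), and Sema3b fell 1.46-fold. The receptor Plxnd1, an endothelial and myeloid plexin, rose 2.41-fold, and Sema7a, a membrane-anchored semaphorin, 2.21-fold, with Sema6d and Plxna2 at 1.67-fold and 1.54-fold. All 6 held. Other large falls were Slc22a2, an organic cation transporter (2.28-fold), Rbp4, the retinol carrier (2.08-fold), Ndp, the Wnt-pathway ligand norrin (1.95-fold), Ramp1, a subunit of the receptor for the vasodilator CGRP (1.93-fold), Armc3 (2.18-fold) and Tceal3 (1.94-fold). Ramp1 had -0.004, 0.064 and 0.14 in Apoe-/- pools, against 1.09, 1.18 and 0.77 in wild type pools.

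Many of the largest falls lay on the chromosome of the deleted gene. Of the 20 largest that held, 10 are on chromosome 7, Apoe included, beside 3 of the 20 largest rises. Of all 24 falls of at least 2-fold, 11 are on that chromosome, again with Apoe. Chromosome 7 carries 1658 of the 19705 genes tested. Mrps12, a protein of the mitochondrial ribosome, had -0.37, -0.11 and 0.011 in Apoe-/- pools, against 2.51, 2.48 and 2.57 in wild type pools (6.38-fold lower, adjusted p = 2.48e-06), and lies 142 measured genes after Apoe in the order of the mouse gene table. Vmn2r29, a vomeronasal receptor of a large family of similar genes, had -0.14, -0.20 and -0.16, against 2.16, 2.56 and 2.56 (6.04-fold lower) and lies 143 genes before it. The folds of both were above that of Apoe, with intervals (5.28 to 7.71 and 5.03 to 7.24) that overlap its own. The zinc finger genes Zfp74 and Zfp111 fell 3.88-fold and 3.73-fold at 174 and 28 genes after Apoe, and Bcam, a laminin-binding adhesion protein, 3.24-fold at 3 genes. Ppp1r14a, Sertad3, Wtip and Nox4, at 164, 104, 238 and 638 genes after Apoe, complete the 10. Among the 25 measured genes on either side of Apoe, 16.0% were lower, beside 10.7% at 26 to 100 genes, 10.5% at 101 to 200, 6.1% at 201 to 400, and 2.7% farther away. The share that was higher did not follow this order. From the nearest window to the farthest it was 3 of 50, 4 of 150, 5 of 200, 16 of 231 and 61 of 1024 genes, lowest at 26 to 200 genes. Bcl3, a coactivator of NF-kappaB in the nearest window, was 4.79-fold higher. Over whole chromosomes, the share lower was 5.31% on chromosome 7 and between 2.80% (chromosome 13) and 5.50% (chromosome 18) on the other autosomes and the X.

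**Figure D5:**
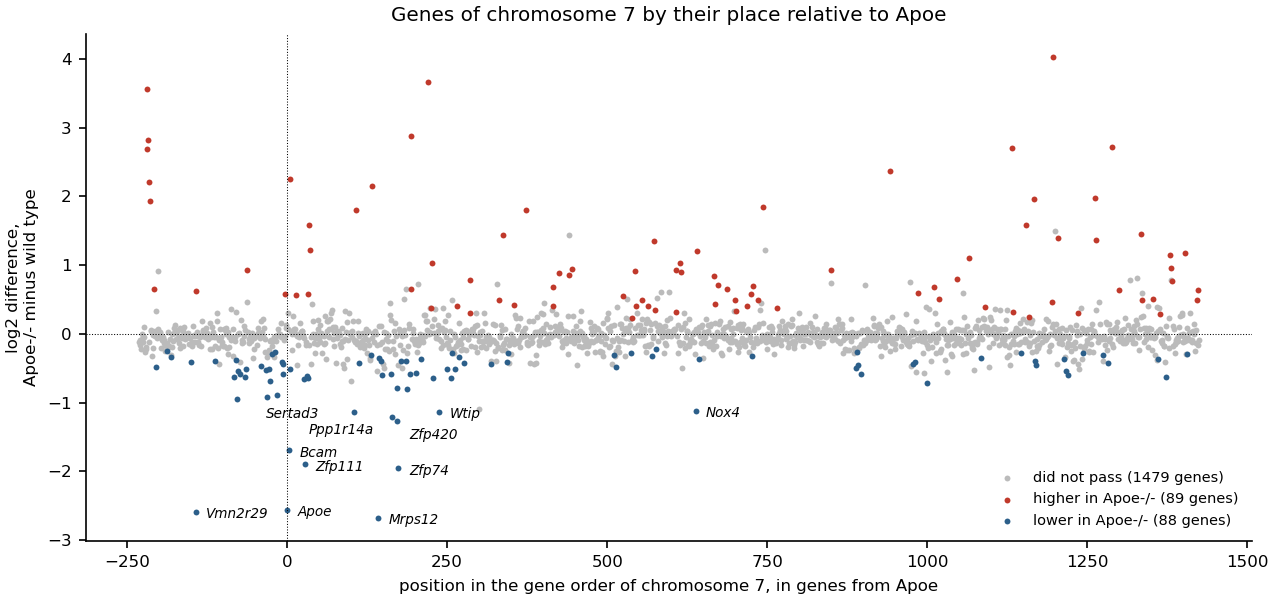
Log2 difference (Apoe-/- minus wild type) of the genes of chromosome 7 against their place in the gene order, counted in measured genes from Apoe at 0, with genes that rose in red, genes that fell in blue and the rest in grey. Falls of at least 2-fold are named, and 10 of the 11 lie within 250 genes of Apoe or are Apoe itself.

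The Apoe-/- arches after 8 and 24 weeks of diet share the 16-week pools' reference, and their group means are given beside for the genes that lead the text. The limma fit also set the 16-week Apoe-/- pools against those after 8 weeks and those after 24 weeks. Adjusted p-values in this paragraph are given in that order. Mmp12 had mean log2 ratios of -3.38, -1.17 and 0.73 after 8, 16 and 24 weeks in Apoe-/- arches, against -5.98 after 16 weeks in wild type arches. Trem2 had -2.33, -0.35 and 0.58 after 8, 16 and 24 weeks in Apoe-/- arches, against -4.65 after 16 weeks in wild type arches. In both genes the 16-week mean lay between those of the other Apoe-/- groups and all 3 were above wild type. The adjusted p-values were 0.00813 and 0.0121 for Mmp12, and 0.00513 and 0.054 for Trem2. Myh11 had 0.52, 0.016 and -0.28 after 8, 16 and 24 weeks in Apoe-/- arches, against 0.93 after 16 weeks in wild type arches, and Ppp1r14a had 0.59, -0.017 and -0.45, against 1.19, again with the 16-week mean in the middle. Myh11 passed neither test (adjusted p 0.0608 and 0.189), and Ppp1r14a only that against 8 weeks (0.0231 and 0.0572). The 2 chromosome 7 genes with the largest falls stayed near 0 over diet time and passed neither test (adjusted p 0.314 to 0.583). Mrps12 had 0.002, -0.16 and 0.069 after 8, 16 and 24 weeks in Apoe-/- arches, against 2.52 after 16 weeks in wild type arches, and Vmn2r29 0.049, -0.17 and 0.003, against 2.43. Bcam, also close to Apoe, had 0.96, 0.22 and -0.57, against 1.91, and passed only the test against 24 weeks (adjusted p 0.0896 and 0.0463). Plvap, Nox4 and Per2 also stayed near 0 across the Apoe-/- times and passed neither test (adjusted p 0.6 to 0.905). Plvap had -0.006, 0.14 and 0.029, against -1.24. Nox4 had -0.021, -0.095 and 0.042, against 1.02. Per2 had -0.092, -0.14 and 0.003, against 0.68. Hoxc6 had 0.67 after 8 weeks, near the wild type mean of 0.86, and -0.24 and -0.17 after 16 and 24 weeks (adjusted p 0.0109 and 0.833).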

How the data were processed

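RNA was measured on 12 two-colour arrays, 3 per group. The authors deposited 1 log10 ratio per probe and array for 39556 probes. No source used here states how they were normalized. Base and direction were settled from the values: transcripts found in a single pool needed that pool to be 14.9% of the reference (median, range 8.52% to 18.5%) in base 10 but 35.6% in base 2, and Apoe was high in wild type pools. A reference of 9 equal pools would give 11.1%. The check took the reference to be made of the study's Apoe-/- pools. The titles call it a vehicle pool and those pools no drug. They also count fewer mice in it than in those pools together, so its exact make-up is not known here. Multiplying the deposited log10 ratios by 3.32 gave log2 ratios of pool over reference. Gene symbols (23283 probes had 1, 16273 none) were updated through a mouse gene table (GRCm38.p6), in which 14510 of 20551 were current and 5952 older names. Probes of a gene were averaged, and the fit took the 19705 genes measured on all arrays. Ratios carry no depth, so the number of arrays limits the precision.

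Groups were compared with limma (version 3.58.1, R 4.3.3, lmFit then eBayes, 1 mean per group, 8 residual and 2.95 prior degrees of freedom, two-sided, Benjamini-Hochberg over all genes tested), tested on simulated data. The text names Apoe, the 20 largest rises and falls that held, up to 4 rises and 3 falls that held in each of 67 gene lists, listed genes that passed with what ends their call or did not pass with values only, and the 10 genes most unlike between the Apoe-/- pools. Vcl, Mylk, Pira2 and Pik3r5 were added after their values were seen. The comparison, the lists and the motifs were chosen with earlier results of these data known. Of 1413 listed genes, 1330 were measured.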

Additional observations from a re-analysis of the deposited data

How the results depend on the processing

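The count of changed genes was 1991 (1189 higher in Apoe-/-, 802 lower). It was 893 (400 higher, 493 lower) after quantile normalization, 5604 (2302 higher, 3302 lower) with array weights and 3927 (1565 higher, 2362 lower) without pools 2 and 18, which were left out after the data were seen because their weights were the lowest. Without pools 3 and 6, which carry an asterisk of unstated meaning in the labels, 522 genes were lower and 1180 higher. Leaving out each pool in turn gave 1231 (without pool 17) to 3052 (without pool 2) changed genes, 843 to 1567 higher and 383 (without pool 16) to 1485 (without pool 2) lower, and without pool 4 the count was 1254. The cause of these shifts was not tested. Median centring, centring with equal spread, the 6 pools alone, a variance filter, a trended robust prior and the probe that varies most gave 1768 to 2169. Apoe kept its direction and its call in every fit, with differences of -2.80 to -2.13. Named genes that held kept their call in 2749 of 2749 combinations of gene and setting, but most of these combinations are no test. Without each pool in turn, on the 6 pools alone and after quantile normalization, the call was kept by the definition of held. Only the remaining settings could have ended a call, and the choice of genes made that unlikely. Of 2948 list counts across settings, 493 moved by over 1.5 times, 75 of them after quantile normalization and 74 with array weights. Of the 1991 changed genes, 682 were also called after quantile normalization and 59 had the opposite sign there. No paired analysis was possible because the pool numbers of the 2 groups are not shared. With 3 pools a group, and ratios without intensities, small changes and genes near background are the least certain.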

Other observations

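A pair of Hox genes varied between pools of the same group. Hoxd11 had log2 ratios of 0.13, -0.14 and 1.24 in Apoe-/- pools 4, 5 and 6, against 0.023, -0.26 and 1.32 in wild type pools 16, 17 and 18, and Hoxc4 had 0.13, -0.085 and 0.98, against 0.012, -0.19 and 1.03. Pools 6 and 18 were the high ones in both genes, and neither passed the test between the groups (adjusted p 0.977 and 0.962). The mean of the heart muscle list had the same order of pools within each group. From low to high it was pools 5, 4 and 6, and pools 17, 16 and 18. Between groups it differed, since pool 6 (0.30) lay well above pool 18 (-0.46). Whether the Hox and heart muscle values are linked was not tested.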
